A study of Homo sapiens with 13 samples.

Results

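The regions described here are active promoters of MDA-MB-231 cells that carried a CTCF peak beside RNA polymerase II (Pol II). They were chosen by peak lists of the same cells: a 3 kb window around the Ensembl canonical TSS of a protein-coding gene was taken as a member when an H3K27ac region, a Pol II peak and a CTCF peak each overlapped it by at least 1 bp. Of 19894 windows, 2735 (13.7%) met this rule. With only peaks no narrower than the median of their list it was met by 1125 windows, and over all 55884 TSSs of basic transcripts by 7559. They were set beside 8506 windows that had H3K27ac and Pol II but no CTCF, beside 515 windows with CTCF but no H3K27ac, and beside 243 windows with H3K27ac and CTCF but no Pol II.

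MDA-MB-231, an established human line from a triple-negative breast cancer of the basal B kind, was grown in standard culture without treatment. ChIP-seq had been carried out with 2 libraries for each of H3K27ac, H3K4me1, H3K4me3, Pol II and CTCF, and with a single library, from pooled immunoprecipitations, for p300/CBP. The replicates had been merged before peaks were called, and the lists hold positions only, so depth, signal height and the error between replicates are unknown. All comparisons are between windows, which are not replicates, and the intervals and tests cover counting error only. The duplicates had been prepared independently, per the methods. The lists come from separate immunoprecipitations of whole cell populations, so proteins on the same DNA molecule and proteins on different copies of a locus cannot be told apart.

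CTCF is a DNA-binding protein with many zinc fingers that reads a long motif in 1 orientation and stops the ring-shaped cohesin complex as it moves along chromatin. It is best known at the anchors of chromatin loops and at the borders of contact domains, and it is also found at many promoters. H3K27ac, the acetylation of lysine 27 of histone H3, marks active promoters and enhancers, whereas H3K4me3 is the methylation typical of promoters and H3K4me1 that of enhancers and promoter flanks. p300 and CBP are the acetyltransferases that deposit H3K27ac.

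The labelled cell type was compared with its markers. Of all 19894 windows, 7676 had no H3K27ac, so the mark by itself separates cell types weakly. All 7 basal B markers (VIM, CD44, EGFR, CAV1, FOSL1, AXL and PLAU) had H3K27ac in their window. Of 7 luminal genes, ESR1, PGR and GATA3 had none, but FOXA1, KRT8, ERBB3 and TFF1 had H3K27ac, and the windows of FOXA1, KRT8 and ERBB3 were members. CDKN2A, a gene that MDA-MB-231 cells have lost, had no region in any of the 6 lists.

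Stretches of member promoters are printed below as examples of the DNA under the CTCF peaks, because the orientation of the motif is one of the measurements that follow. All are read on the strand of the gene, 5′ to 3′, from GRCh37 (hg19). In the first set, capitals mark an exact match to 9 letters of the CTCF motif, CCANNAGGG, or its reverse complement, at matches outside exons close to the TSS.

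UBR2, chr6:42531700-42531760: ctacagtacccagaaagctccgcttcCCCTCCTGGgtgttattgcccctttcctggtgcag
ZNF354A, chr5:178157681-178157741: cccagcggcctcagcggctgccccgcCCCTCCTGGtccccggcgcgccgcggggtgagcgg
ZNF589, chr3:48282753-48282813: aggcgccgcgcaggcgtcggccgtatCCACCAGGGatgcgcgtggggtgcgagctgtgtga
ZNF438, chr10:31320574-31320634: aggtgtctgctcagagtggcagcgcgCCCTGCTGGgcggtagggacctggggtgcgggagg
CNGA1, chr4:48018423-48018483: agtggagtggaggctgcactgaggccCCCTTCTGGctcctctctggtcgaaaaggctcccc

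The matches of UBR2 and ZNF354A lay 37 and 51 bp upstream of the TSS. The matches of ZNF589, ZNF438 and CNGA1 lay 189, 190 and 245 bp downstream, in the gene body but outside annotated exons. ZNF589 had the motif on the strand of the gene, and the other 4 had it on the opposite strand. These examples do not show how frequent each strand was, which is counted further below. UBR2 and ZNF589 are transcribed from the plus strand, and ZNF354A, ZNF438 and CNGA1 from the minus strand.

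In the second set, capitals mark a longer form of the motif, CCANNAG followed by any 2 bases and GGC, or its reverse complement, in CTCF peaks of genes that are described below.

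RPS4X, chrX:71497155-71497214: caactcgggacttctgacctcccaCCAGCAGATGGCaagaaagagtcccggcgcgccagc
POLR2D, chr2:128615939-128615998: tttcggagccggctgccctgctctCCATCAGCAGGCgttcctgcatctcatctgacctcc
ECT2, chr3:172468305-172468364: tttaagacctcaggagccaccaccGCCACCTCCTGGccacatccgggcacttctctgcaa
XXYLT1, chr3:194992376-194992435: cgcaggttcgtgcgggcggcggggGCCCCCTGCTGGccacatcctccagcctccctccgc

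These matches lay upstream of the TSS, at 87 bp in RPS4X, 240 bp in POLR2D, 181 bp in ECT2 and 518 bp in XXYLT1. RPS4X and POLR2D had the motif on the strand of the gene, and ECT2 and XXYLT1 on the opposite strand. ECT2 lies on the plus strand and the other 3 genes on the minus strand.

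CTCF overlapped 24.3% of the 11241 windows with H3K27ac and Pol II (95% Wilson interval 23.5% to 25.1%). Its share was 24.9% of 977 windows with H3K27ac and no Pol II (22.3% to 27.7%) and 6.71% of 7676 windows without H3K27ac (6.17% to 7.29%). These shares describe the rule and were not tested. The members held 2828 distinct CTCF peaks of the 39596 on the list, with a median width of 300 bp (quartiles 200 and 400 bp) and a greatest width of 1200 bp. A single CTCF peak lay in 2378 member windows, 2 peaks lay in 313, 3 in 39, 4 in 4, and 5 in 1. Neighbouring promoters shared peaks: 289 CTCF peaks touched more than 1 member window, and 635 members overlapped the window of another gene. The share of windows with H3K27ac and Pol II that held CTCF varied by chromosome. It ran from 9.09% on chromosome 21 (9 of 99, 4.86% to 16.4%) to 30.9% on chromosome 15 (112 of 363, 26.3% to 35.8%). This range was not tested.

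At the edge of the rule, the CTCF peaks of ZNF576, RTBDN and FLOT1 reached 4, 8 and 13 bases into the window. The nearest peaks left out began directly after the windows of NR3C1 and of the readthrough gene ENSG00000111780 (a gap of 0 bp), or ended 2 bp before that of NOP53.

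CTCF lay upstream of the TSS in most members, and the 250 bp directly upstream were the fullest bin. The centre of the nearest CTCF peak was upstream in 1769 members (64.7%), downstream in 961 and at the TSS itself in 5, with the median 136 bp upstream. The 250 bp directly upstream of the TSS held it in 733 members (26.8%, 25.2% to 28.5%), against 269 (9.84%, 8.78% to 11.01%) in the 250 bp directly downstream. The next 250 bp upstream held it in 405 members (14.8%). Both flanks then fell off, to 102 members (3.73%) between 1500 and 1250 bp upstream and 76 (2.78%) between 1250 and 1500 bp downstream.

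**Figure D1:**
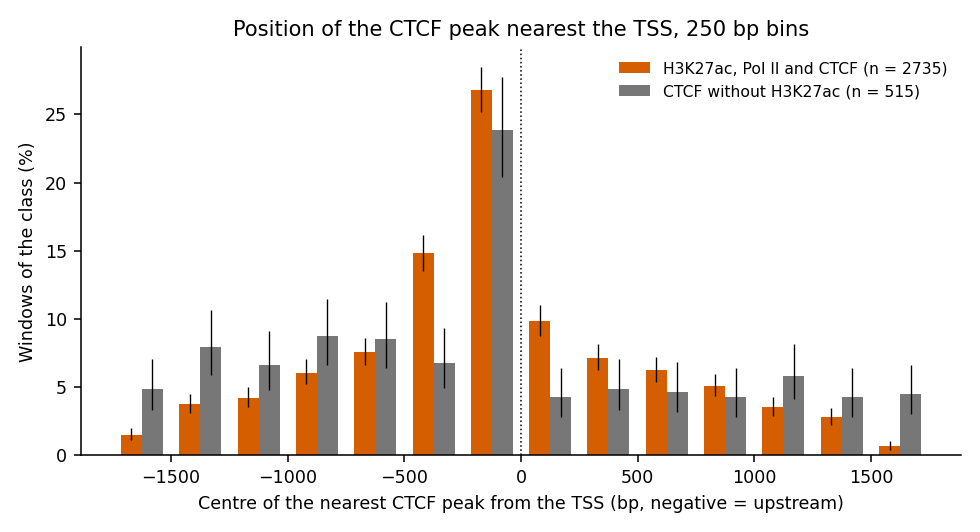
Share of windows (y axis, %) by the signed distance of the centre of the nearest CTCF peak from the TSS (x axis, bp, in bins of 250 bp), for the 2735 members and the 515 windows with CTCF but no H3K27ac. Error bars are 95% Wilson intervals, and the tallest bar of the members, 26.8%, is the bin directly upstream of the TSS.

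The upstream bias was shared with CTCF at promoters without H3K27ac, where 347 of 515 nearest peaks (67.4%) were upstream. The odds ratio between the classes was 0.887 (two-sided Fisher's exact test, Benjamini-Hochberg adjusted p = 0.271 over 11 tests). When all CTCF peaks were counted, or only peaks no narrower than the median of their list, this odds ratio was 0.791 and 0.717 and passed the threshold. The members had CTCF closer to the TSS, at less than 250 bp in 1000 of 2735 (36.6%) against 144 of 515 (28.0%), with an odds ratio of 1.48 (1.21 to 1.83, Fisher's exact test, adjusted p = 0.000350). With the peaks narrower than the median left out of the H3K27ac, Pol II and CTCF lists, which also redefines both classes, the odds ratio was 0.821 (Fisher's exact test, adjusted p = 0.0832).

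By the annotation of the canonical transcript, the nearest CTCF centre lay in the opening intron of 554 members (20.3%), in a UTR exon of 196 (7.17%), in a coding exon of 153 (5.59%) and in a later intron of 61 (2.23%). In 2 members it lay past the end of a short transcript. Of the 1769 upstream centres, 529 were inside an annotated exon of another transcript, of the same or of a neighbouring gene.

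The letters CCANNAGGG, searched on both strands, were found in 358 of the 2828 CTCF peaks of members (12.7%, 11.5% to 13.9%), in 16.7% of the 35969 CTCF peaks outside all TSS windows, and in 5.09% of 300 bp stretches of the comparison windows. As whole 3 kb windows, 48.6% of members and 40.4% of comparison windows held a match, against 43.2% of all TSS windows. The odds ratio was 1.40 (1.28 to 1.52, Fisher's exact test, adjusted p = 5.80e-13). Members were chosen by CTCF peaks, where these letters were more frequent, so this difference follows in part from the rule. The longer form, chosen after the data had been seen, was more particular to CTCF peaks. It was in 12.9% of member peaks, 27.8% of the peaks outside TSS windows and 1.24% of comparison stretches, and in 24.4% of member windows against 12.1% of comparison windows. Most CTCF peaks, in and outside TSS windows, lacked these exact letters, so a missing match does not decide whether CTCF bound there.

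Among members whose nearest CTCF peak was upstream and matched CCANNAGGG on 1 strand only, 145 of 234 (62.0%, 55.6% to 67.9%) had the motif on the strand of the gene. For downstream peaks it was 46 of 116 (39.7%, 31.2% to 48.8%), with ZNF438 and CNGA1 among those on the opposite strand. The longer form gave 160 of 259 upstream (61.8%) and 30 of 84 downstream (35.7%, 26.3% to 46.4%). At the windows with CTCF but no H3K27ac the counts were 32 of 61 upstream (52.5%, 40.2% to 64.5%) and 15 of 28 downstream, and with the longer form 48 of 82 upstream (58.5%, 47.7% to 68.6%) and 19 of 38 downstream. Neither the difference between upstream and downstream peaks nor that between the classes was tested.

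The members had wider stretches of Pol II and H3K27ac than active promoters without CTCF. The widest Pol II peak touching the window had a median width of 1200 bp (quartiles 700 and 2400 bp) in members and 1050 bp (650 and 1800 bp) in the comparison class. It was 5 kb or wider in 327 members (11.96%) and in 697 comparison windows (8.19%), with an odds ratio of 1.52 (1.32 to 1.75, Fisher's exact test, adjusted p = 4.00e-08). The widest H3K27ac region had a median width of 2350 bp in members and 2150 bp without CTCF, and was 5 kb or wider in 248 (9.07%) and 561 (6.60%), with an odds ratio of 1.41 (1.21 to 1.65, Fisher's exact test, adjusted p = 5.65e-05). Both odds ratios stayed above 1 and past the threshold in each alternative. Pol II regions less than 800 bp apart had been joined by the authors, which sets how wide a peak could become.

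The members with the widest Pol II peaks were BCL2L1, HNRNPUL1, PLEC, BCAR3 and AHNAK. BCL2L1, which encodes the survival protein BCL-XL, lay in a Pol II peak of 67650 bp and an H3K27ac region of 37000 bp, with 3 CTCF peaks 80, 530 and 1205 bp upstream. HNRNPUL1, an RNA-binding protein gene, lay in a Pol II peak of 49600 bp and had an H3K27ac region of 3100 bp. That Pol II peak ran from -45976 to 3624 bp relative to the TSS, so most of it lay upstream of the gene. PLEC, which encodes the cytoskeletal linker plectin, had 40100 bp of Pol II and 22100 bp of H3K27ac, whereas BCAR3 had 38400 and 12850 bp and AHNAK 37300 and 11300 bp. Each of these 5 Pol II peaks spanned the whole 3 kb window, so its overlap with the nearest CTCF peak followed from the choice of genes.

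H3K4me3 was nearly universal in both classes, at 99.7% of members and 99.4% of comparison windows (odds ratio 1.68, 0.824 to 3.44, Fisher's exact test, adjusted p = 0.224). H3K4me1 was present in 85.5% and 85.7% (odds ratio 0.984, 0.871 to 1.11, Fisher's exact test, adjusted p = 0.802). The profiles along the window had the same shape. Pol II covered 88.9% of members and 88.8% of comparison windows in the 50 bp that start at the TSS, but 26.8% and 19.9% at 1000 bp downstream, and 14.3% and 10.7% at 4000 bp downstream. H3K4me1 was sparse at the TSS, at 7.90% of members, and rose to 57.8% at 2000 bp downstream, against 55.5% in the comparison class.

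**Figure D2:**
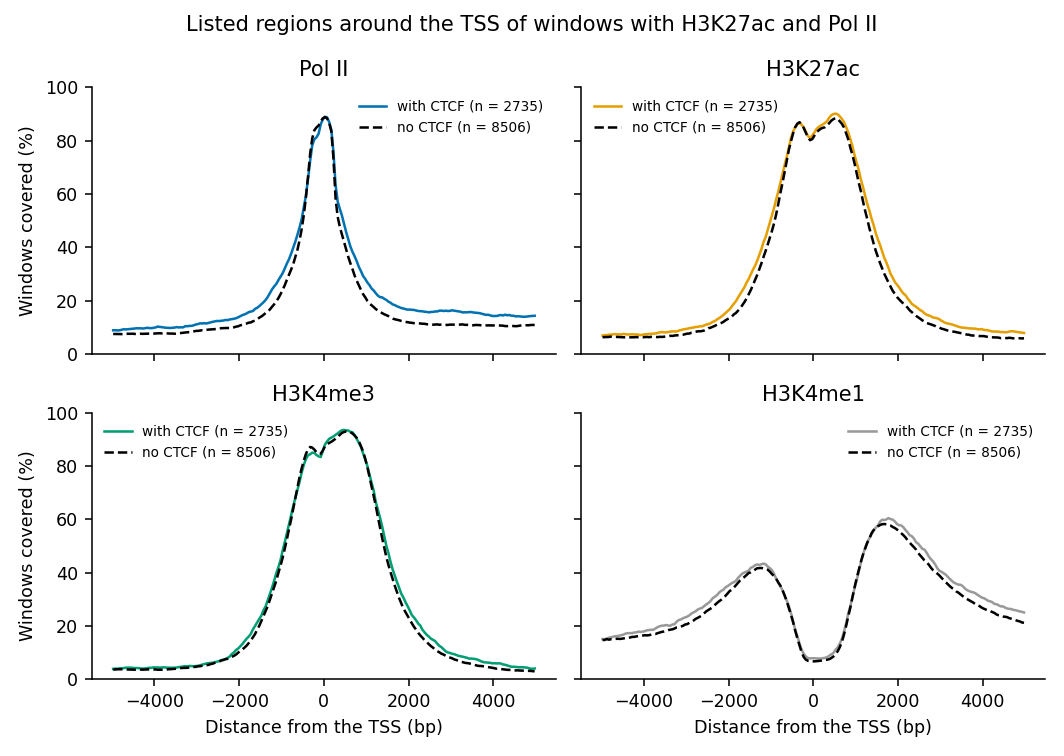
Share of windows (y axis, %) covered by a listed region in 50 bp bins from 5 kb upstream to 5 kb downstream of the TSS (x axis, bp), for members (solid, n = 2735) and windows with H3K27ac and Pol II but no CTCF (dashed, n = 8506). The Pol II lines meet at the TSS, at 88.9% and 88.8%, and the line of the members lies higher on both flanks.

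Coverage was then read at the CTCF peak itself. At the 1038 members whose nearest CTCF centre was 250 bp or more upstream, Pol II covered the CTCF centre in 63.7% (60.7% to 66.6%). At the same distances it covered 43.7% of windows without CTCF, and 40.3% (37.3% to 43.3%) of the same members at the mirrored position downstream of the TSS. Pol II lay at the CTCF centre and not at its mirror position in 334 members, and the reverse held in 91. H3K27ac covered 83.3% of the upstream CTCF centres against 64.4% without CTCF, and H3K4me3 79.3% against 63.8%, whereas H3K4me1 covered 17.5% against 27.6%. At the mirrored positions of these members H3K27ac covered 74.4%, H3K4me3 80.8% and H3K4me1 22.9%. In windows without CTCF the mirrored shares were 76.0%, 83.0% and 22.2%.

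At the 697 members with CTCF 250 bp or more downstream, Pol II covered 54.7% (51.0% to 58.3%) of CTCF centres, 46.8% (43.1% to 50.5%) of the mirrored positions and 31.6% of the same positions without CTCF. H3K27ac covered 89.5% against 75.2% without CTCF and H3K4me3 92.3% against 82.6%, and H3K4me1 was again lower, at 14.9% against 24.2%. Their mirrored positions were covered in 65.4%, 63.3% and 34.3% by H3K27ac, H3K4me3 and H3K4me1. In windows without CTCF the mirrored positions were covered in 39.0% by Pol II, 61.3% by H3K27ac, 60.6% by H3K4me3 and 30.1% by H3K4me1. Within 250 bp of the TSS, where 1000 members had their CTCF, Pol II covered 83.5% of the CTCF centres (81.1% to 85.7%), 85.6% of the same positions without CTCF, and 89.4% (87.3% to 91.2%) of the mirrored positions. There it lay at the CTCF centre alone in 65 members and at the mirrored position alone in 124. In windows without CTCF, Pol II covered 84.8% of these mirrored positions. These are descriptions with no test. Neither the CTCF list nor the Pol II list had the background subtracted, and its part in the shared positions was not tested.

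**Figure D3:**
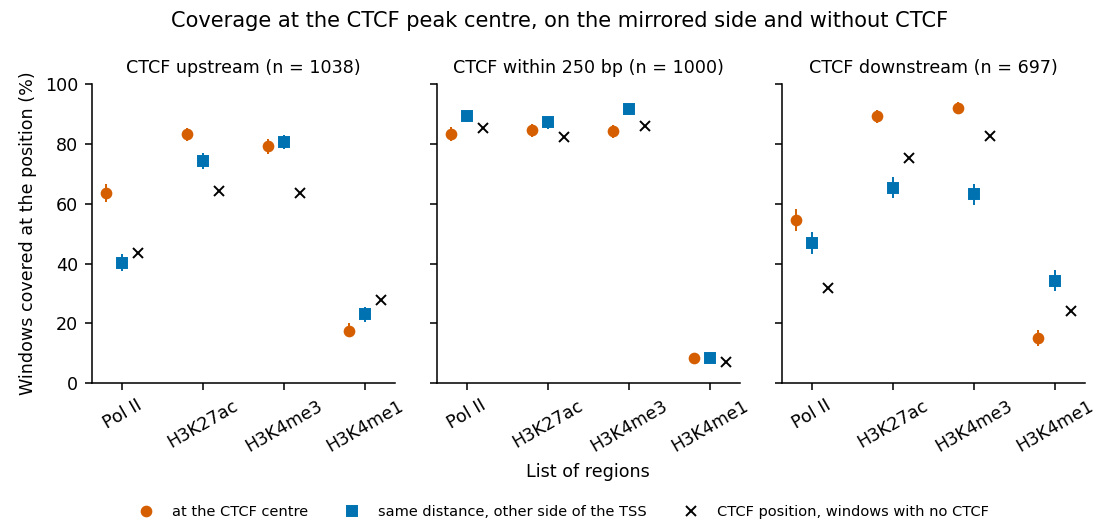
Share of members (y axis, %) in which each list (x axis) covered the centre of the nearest CTCF peak (circles), the position at the same distance on the other side of the TSS (squares), and the same position averaged over windows without CTCF (crosses), for CTCF upstream, within 250 bp and downstream of the TSS. Bars are 95% Wilson intervals. Pol II at upstream CTCF stands at 63.7%, above the mirrored 40.3% and the 43.7% of windows without CTCF. The mirrored position in windows without CTCF, which is not drawn, was covered in 34.5%.

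Head-to-head gene pairs, with the TSS of another protein-coding gene on the other strand within 1 kb upstream, were fewer among members. They made up 361 members (13.2%) and 1420 comparison windows (16.7%), with an odds ratio of 0.759 (0.670 to 0.859, Fisher's exact test, adjusted p = 4.00e-05). Both windows of a pair can be counted, and with 1 window kept per group of overlapping windows the shares were 7% and 9.20%. In 151 of the 361 members a CTCF peak touched the stretch between both TSSs. The nearest CTCF centre was upstream in 64.7% of all members, and no reference share was measured for this count. ATM, the kinase of the DNA damage response, was in such a pair, with CTCF 43 bp upstream, as were the immunoproteasome gene PSMB9, 18 bp upstream, and MRPS2, 77 bp upstream.

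Members more often had a further CTCF peak 1.5 to 25 kb from the TSS, in 66.1% against 63.5%, with an odds ratio of 1.12 (1.02 to 1.22, Fisher's exact test, adjusted p = 0.0295). This difference was small, and it missed the threshold when peaks were assigned by their centre or the distance was extended to 50 kb (Fisher's exact tests, adjusted p = 0.0726 and 0.114). A CpG-rich centre, with GC of at least 55% and a CpG ratio of at least 0.75 over 1 kb, was found in 59.4% and 58.0% (odds ratio 1.06, Fisher's exact test, adjusted p = 0.240).

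p300/CBP was rare at active promoters. It was present in 30 members (1.10%) and in 56 comparison windows (0.658%), with an odds ratio of 1.67 (1.07 to 2.61, Fisher's exact test, adjusted p = 0.0487). In 5 of 7 alternatives the difference missed the threshold, with odds ratios of 1.23 to 1.56, and the p300/CBP list rests on 1 library. ECT2, a gene needed for cytokinesis, had the most p300/CBP sequence of the members, 600 bp, with CTCF 165 bp upstream. RTN4 and LY6K had 300 bp each, ZFP91 265 bp, and UCN2 and PLEC 250 bp. CCN2, a secreted matricellular protein gene, had 200 bp of p300/CBP and 2 CTCF peaks 811 and 1361 bp downstream. The growth-control phosphatase gene DUSP1 had 200 bp, with CTCF 347 bp downstream and 978 bp upstream.

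Genes were next described by lists chosen with earlier results known, each against the 24.3% of all windows with H3K27ac and Pol II that held CTCF. No list was tested. Among genes for CTCF, cohesin and their regulators, 8 of 17 windows were members (47.1%, 26.2% to 69.04%): CTCF itself, YY1, the cohesin subunits STAG1 and STAG2, the cohesin regulators PDS5A and PDS5B, the loader NIPBL and the acetyltransferase ESCO1. The CTCF peak of STAG1, chr3:136471001-136471451, was 450 bp wide and centred 6 bp upstream of the TSS, under a Pol II peak of 2700 bp. A further STAG1 peak of 100 bp lay 681 bp upstream. PDS5B had a CTCF peak of 100 bp 88 bp upstream, and ESCO1 one of 400 bp 336 bp upstream. NIPBL had peaks 620 and 795 bp upstream.

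**Figure D4:**
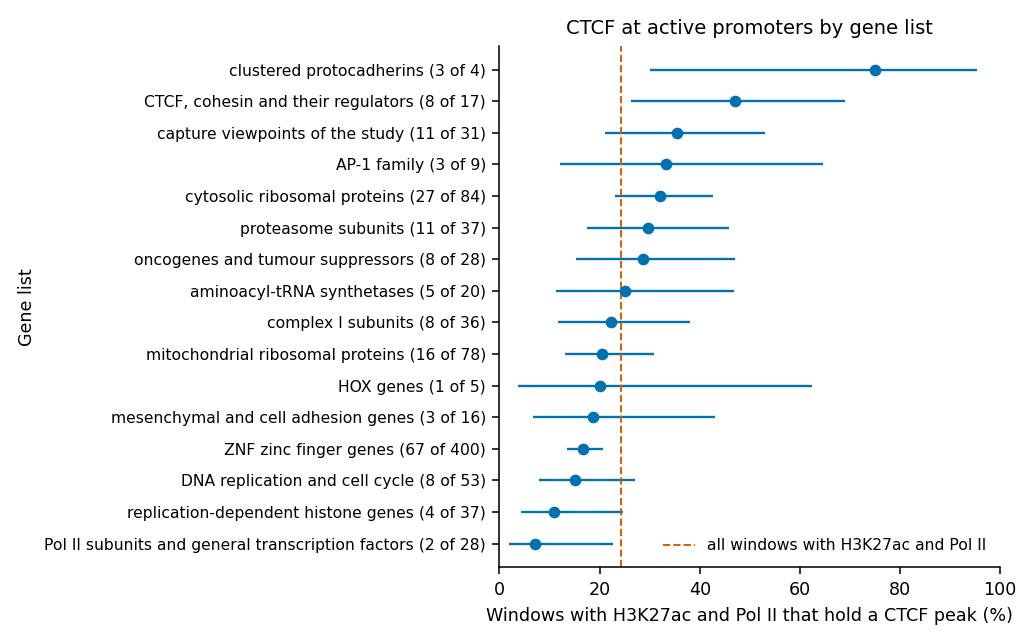
Share of windows with H3K27ac and Pol II that held a CTCF peak (x axis, %) for 16 gene lists (y axis, with members and windows counted), with 95% Wilson intervals. The dashed line is the share over all such windows, 24.3%, and the intervals of 12 lists include it.

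Genes of basic cell functions lay on both sides of that share. Cytosolic ribosomal protein genes had 27 members of 84 (32.1%, 23.1% to 42.7%), proteasome subunits 11 of 37 (29.7%) and aminoacyl-tRNA synthetases 5 of 20 (25%). Complex I subunits had 8 of 36 (22.2%), mitochondrial ribosomal proteins 16 of 78 (20.5%) and DNA replication and cell cycle genes 8 of 53 (15.1%, 7.85% to 27.1%). Genes for Pol II subunits and general transcription factors had 2 of 28 (7.14%, 1.98% to 22.6%), and replication-dependent histone genes 4 of 37 (10.8%, 4.29% to 24.7%). Genes named ZNF, which encode zinc finger proteins, had 67 of 400 (16.8%, 13.4% to 20.7%). Some members of the ribosomal list carry near-identical copies elsewhere in the genome, and only uniquely mapped reads had been used.

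The up to 4 members named from each list are those with CTCF nearest the TSS, and their side is to be read beside the 64.7% of all members with CTCF upstream. RPS4X, a protein of the small ribosomal subunit, had a CTCF peak of 200 bp centred 53 bp upstream, while its H3K27ac region of 3100 bp and H3K4me3 region of 3600 bp both began 47 bp downstream, where the CTCF peak ended. RPL26L1 and RPL36 had CTCF 76 and 80 bp upstream, and RPL22L1 83 bp downstream in an intron. Of the tRNA synthetases, RARS1 had CTCF 75 bp, EPRS1 129 bp, IARS1 197 bp and MARS1 225 bp upstream. The Pol II subunit genes POLR2C and POLR2D had it 65 and 147 bp upstream, and the proteasome genes PSMD6, PSMB4 and PSMB7 106, 123 and 180 bp upstream. The replication genes MCM10 and GINS4 had it 232 and 304 bp upstream, and ORC2, of the origin recognition complex, 332 bp downstream. Of the 4 histone genes, H2AC21 had CTCF 636 bp upstream, and H3C3, H4C3 and H4C16 had it 289, 290 and 1089 bp downstream. The ZNF genes with CTCF nearest the TSS were ZNF783, ZNF589, ZNF691 and ZNF282, at 11 bp upstream, 32 bp downstream, and 33 and 37 bp upstream.

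Clustered protocadherin genes, whose alternative promoters are a known place of CTCF binding, had 4 windows with H3K27ac and Pol II, of which 3 were members. CTCF lay 40 bp upstream in PCDHGB1, 48 bp in PCDHB2 and 60 bp in PCDHGB2. Their active regions were short. PCDHB2 had 150 bp of Pol II and 350 bp of H3K27ac, PCDHGB1 200 and 400 bp, and PCDHGB2 150 and 750 bp, against medians of 1200 and 2350 bp over all members. HOX genes had 5 windows with H3K27ac and Pol II, and HOXC5 was the single member, with CTCF 283 bp upstream and not overlapping Pol II.

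Oncogenes and tumour suppressors had 8 members of 28 (28.6%, 15.3% to 47.1%), among them ATM, MDM2, MYC and CCND1. In MDM2, which encodes a ubiquitin ligase, CTCF was centred 44 bp downstream of the TSS, in MYC 49 bp and in CCND1, the cyclin D1 gene, 77 bp downstream, each in a UTR exon. CCND1 lay under a Pol II peak of 21450 bp and MYC under one of 9650 bp. The AP-1 family of bZIP transcription factors had 3 members of 9. BATF2 had CTCF 17 bp downstream, ATF3 748 bp downstream in an intron, and JUN 1257 bp upstream, inside a Pol II peak of 7550 bp. Of the mesenchymal and cell adhesion genes, 3 of 16 were members. VIM, the vimentin gene, had CTCF 589 bp upstream, ZEB2 140 bp upstream and LAMC1, a laminin chain gene, 621 bp downstream. VIM also held p300/CBP.

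**Figure D5:**
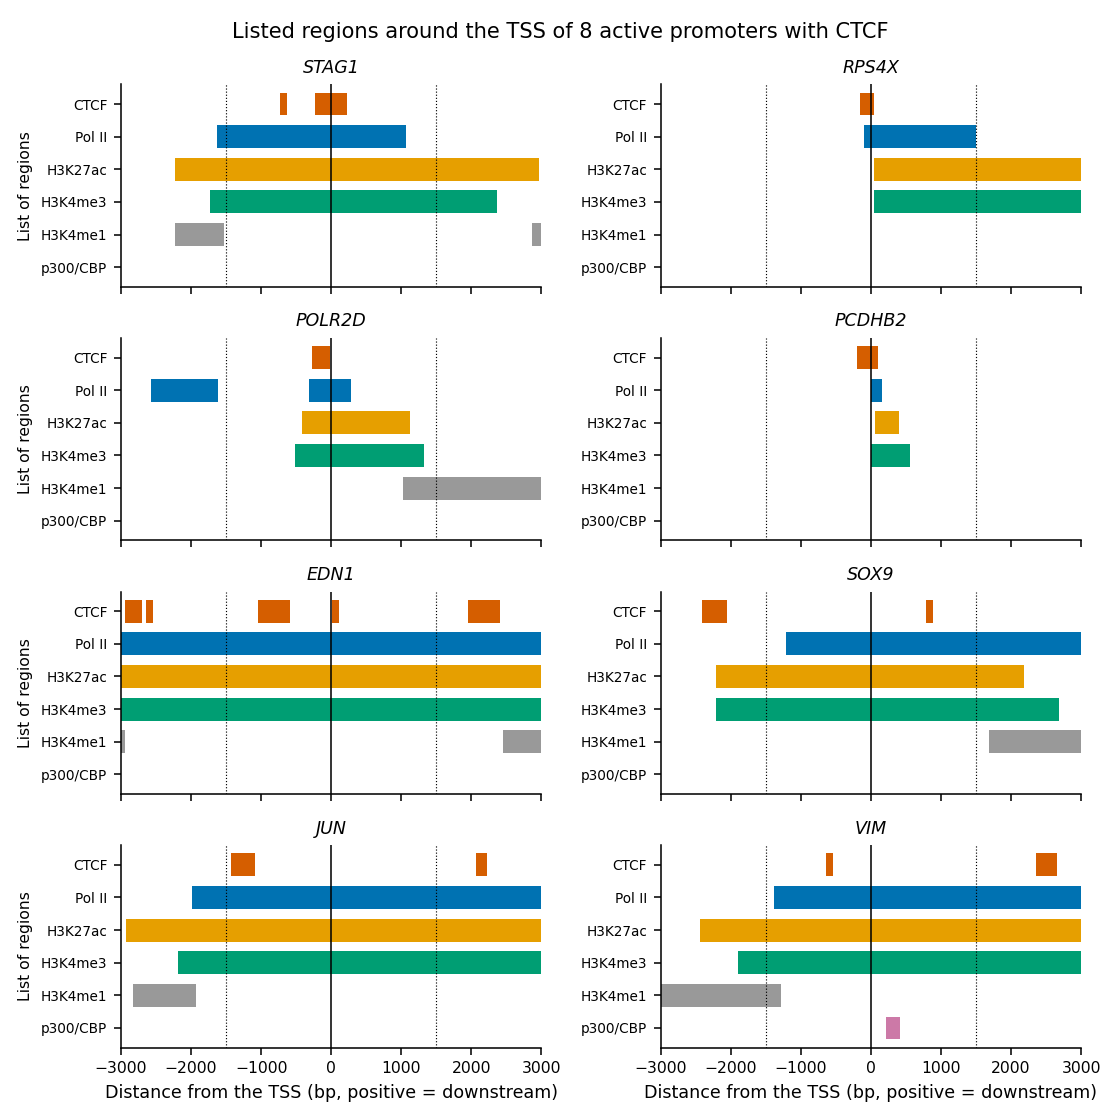
Regions of the 6 lists (y axis) within 3000 bp of the TSS (x axis, bp, positive downstream) in 8 members. The solid line is the TSS and the dotted lines are the window's ends. The nearest CTCF peak sits at or near the TSS of STAG1, RPS4X, POLR2D, PCDHB2 and EDN1. It lies inside wide Pol II peaks of 7450 bp in EDN1, 7750 bp in SOX9, 7550 bp in JUN and 13250 bp in VIM. A further CTCF peak of SOX9 lies upstream of its Pol II peak.

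Of the genes whose promoters the study used as viewpoints for capture of chromatin contacts, 11 of 31 with H3K27ac and Pol II were members (35.5%, 21.1% to 53.1%). EDN1, the endothelin 1 gene, had CTCF peaks 57 bp downstream and 818 bp upstream, and MAP2K1, the kinase gene of MEK1, 249 bp upstream and 1026 bp downstream. SRGAP1 had CTCF 654 bp and ABTB2 1444 bp upstream. In the other 7 the nearest peak was downstream, at 694 bp in ITPRID2, 840 bp in SOX9, 1002 bp in LRP10, 1004 bp in PITPNC1, 1009 bp in ID1, 1233 bp in FNDC3B and 1238 bp in ZNF114. PITPNC1 held 3 CTCF peaks, the others at 1154 and 1429 bp downstream. The nearest CTCF peak overlapped no Pol II in ABTB2, FNDC3B and PITPNC1, and overlapped it in EDN1, MAP2K1, SRGAP1, ITPRID2, SOX9, LRP10, ID1 and ZNF114.

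The windows richest in CTCF held narrow or wide peaks. NRG1, which encodes the growth factor neuregulin 1, had 5, at 1053, 428 and 278 bp upstream and 372 and 922 bp downstream. DNMBP had 4 peaks of 100 bp each, at 347 and 197 bp upstream and 253 and 403 bp downstream. KIF27 also had 4, of 100 or 150 bp. TIPARP and MFSD3 had 4 each, the widest of 600 and 550 bp. ZBTB45 had 3 peaks of 450 bp, separated by 50 or 100 bp, and XXYLT1 had 3 of 350 to 600 bp. CTCF regions had been joined only when less than 50 bp apart, so peaks 50 bp apart were counted singly. The widest single CTCF peak, 1200 bp, covered the TSSs of ARL2 and the readthrough gene ARL2-SNX15, and the next, 1100 bp, belonged to the windows of ALG3, EEF1AKMT4 and EEF1AKMT4-ECE2.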

How the data were processed

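Chromatin of MDA-MB-231 cells had been immunoprecipitated and sequenced. Reads had been aligned by the authors to hg19 (BWA-backtrack is named in the methods, and Bowtie2 in the submitters' processing notes). PASHA turned uniquely mapped reads into a signal per 50 bp bin, replicate signals were merged, and peaks were called by a threshold. All signals but CTCF were scaled, and those of p300/CBP and the histone marks had background subtracted. The threshold was 50 for CTCF, H3K27ac and Pol II, 30 for H3K4me1 and H3K4me3, and 60 for p300/CBP. Regions were joined when the gap between them was less than 50 bp for CTCF and p300/CBP, 500 bp for H3K27ac and H3K4me3, 800 bp for Pol II and 1000 bp for H3K4me1. The deposited files hold peak positions only, with no value per peak. Those of CTCF, Pol II and p300/CBP hold more peaks than the paper reports. Input libraries were not analysed here.

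Starts and ends all lay 1 past a multiple of 50, and the end was read as the base after the peak, and coordinates are printed as listed. TSSs, exons and UTRs came from GENCODE release 44 mapped to GRCh37, and sequences from GRCh37 (1-based, both ends included). Position is the centre of a CTCF peak from the TSS, signed by the strand of the gene. Python 3.11.15, NumPy 2.4.6, SciPy 1.17.1, statsmodels 0.14.6 and matplotlib 3.10.9 were used. The test of each feature was a two-sided Fisher's exact test, with Benjamini-Hochberg adjustment over 11 tests at a threshold of 0.05, and shares have 95% Wilson intervals. The alternatives within quartiles of the CpG ratio used a pooled Mantel-Haenszel odds ratio and its test instead. The functions were tested on simulated data. The members and the gene lists were chosen with earlier results of these data known. Genes are named by rule: up to 4 members per list with CTCF nearest the TSS, members with the most or widest CTCF peaks, the widest Pol II peak or the most p300/CBP sequence, capture viewpoints, windows at the edge of the rule, and members with a motif match. Other members of small lists are named to complete a count. The longer motif, the mirrored position and 1 window per group of overlapping windows were added once the data had been seen. Some items that meet these rules are not reported here.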

Additional observations from a re-analysis of the deposited data

How the results depend on the processing

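No paired analysis was possible because replicate signals had been merged ahead of peak calling, which also means that leaving out a replicate was impossible. Depth is unknown. In place of a stricter threshold, which needs a value per peak, only wide peaks (no narrower than their list's median) were kept. Over 13 results and 78 alternative values, 57 kept their direction and their side of the threshold, or moved by less than the counting interval. The number of members was 7559 with all 55884 basic TSSs and 1125 with wide peaks. The share of H3K27ac and Pol II windows with CTCF was 21.5% with a 2 kb window, 23.3% with basic TSSs, 23.2% with the peak centre inside and 16.9% with wide peaks. With wide peaks the odds ratio reversed to 0.904 for a CpG-rich centre, 1.01 for H3K4me1 and 0.821 for CTCF within 250 bp, and CTCF upstream passed the threshold at 0.717, as it did at 0.791 with all CTCF peaks. With a 2 kb window H3K4me1 was 1.01, and H3K4me3 passed at 2.86. A CpG-rich centre passed at 1.27 within quartiles of the CpG ratio. That ratio is part of its definition, so within quartiles the value leans on GC percent and is no separate measure of CpG richness. A further CTCF peak missed the threshold at 1.12 (within 50 kb) and 1.11 (centre inside). p300/CBP missed it at 1.56 (1 window per group), 1.48 (2 kb), 1.23 (centre inside), 1.41 (wide peaks) and 1.46 (windows that overlap no other). The causes were not tested, except that wide peaks leave fewer regions. Head-to-head pairs cannot occur among windows that overlap no other, so that value was not run.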

Other observations

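CTCF at promoters outside the class lay on the same side of the TSS. In the 243 windows with H3K27ac and CTCF but no Pol II, the nearest CTCF peak was upstream in 179 (73.7%, 95% Wilson interval 67.8% to 78.8%), with a median of 235 bp upstream, against 136 bp upstream in the 2735 members. The letters CCANNAGGG were in 14.7% of the 265 CTCF peaks of those windows and in 17.7% of the 536 CTCF peaks of the windows without H3K27ac, where the intervals were 10.96% to 19.5% and 14.7% to 21.2%. The share was 12.7% in the peaks of members. None of these differences was tested.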
